A study of Rattus norvegicus with 16 samples.

Results

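Demyelinated and saline-treated axons were compared through their cell bodies: 6 of the 16 rat arrays of the study, 3 from the lesion side after lysolecithin and 3 from the lesion side after saline, matched by day (4, 10 and 37). The arrays were chosen by their labels, and no measured value entered the choice. The tissue was the pontine nuclei, brainstem cell groups of Rattus norvegicus whose neurons send axons to the cerebellum, so that the injury lay at a distance from the RNA that was measured. The lysolecithin group had its axons exposed to lysolecithin, a lipid that dissolves myelin, and the saline group had saline in its place. The other lesion-side arrays came from transected axons (3 arrays, the same days) and entered the fit for the spread and the day effects. As controls stood 6 arrays of saline, lysolecithin and transection on days 10 and 37 and 1 healthy array. The titles of the 6 say only control, and they are called contralateral here because the study's design text gives the opposite pontine nuclei as controls. Strain, sex, age and the number of animals behind an array are not given in the sources used here, and the labels name no allele or other agent. With 1 array for each condition, days took the place of replicates. As day was a term of the fit, standard errors (SE) and p-values rest on how far the differences between interventions varied from day to day. Part of that scatter may be technical.

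Neurons whose axons are cut or stripped of myelin are known to switch on injury genes such as the transcription factors Atf3 and Jun, together with genes of stress and of axon growth. Microglia, the resident phagocytes of the brain, and astrocytes around such cell bodies often react as well, and activated microglia put major histocompatibility complex (MHC) class II molecules on their surface. Class II molecules are pairs of an alpha and a beta chain that present peptides to T cells, and the invariant chain Cd74 guides their assembly. Complement C3 is the protein on which the complement pathways converge.

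Each array gave a linear signal per probe set, a set of short oligonucleotides for 1 transcript, and a call of Present, Marginal or Absent. Of 8799 probe sets, between 42.8% and 46.4% were called Present after lysolecithin, 46.9% to 47.1% after saline and 39.9% to 45.7% on the 7 controls. The beta-actin 3′/5′ signal ratio, which goes up as RNA breaks down, was 1.20 to 1.44 after lysolecithin, 1.41 to 1.68 after saline and 1.04 to 1.53 on the controls, and the GAPDH ratio was 1.03 to 1.16, 1.09 to 1.16 and 1.07 to 1.26. The 6 arrays correlated with each other at r = 0.961 to 0.983 in log2(signal + 16) across probe sets, which are not independent replicates. Of 20 listed pan-neuronal genes 14 were on the array, and all 14 were detected often enough to be tested. Of 16 listed markers of cerebellar and forebrain cells 8 were on the array and 5 were tested. For monoaminergic and cholinergic neurons 13 of 16 were on the array and 4 were tested. The number of arrays limits the precision throughout.

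On the lesion side, transcripts of antigen presentation and complement were higher after lysolecithin than after saline. Of 4413 probe sets tested with limma, 7 rose after lysolecithin (0.159%; Benjamini-Hochberg adjusted p under 0.05) and 0 fell (0%), while 473 (10.7%) and 438 (9.93%) had an unadjusted p under 0.05 in the 2 directions. The 7 stood for 3 named genes, Cd74 with 2 probe sets, RT1-Da with 2 and C3 with 1, and for 2 probe sets without a single gene name. With the detection filter on the 6 lysolecithin and saline arrays 5 passed, as 1 probe set each of Cd74 and RT1-Da had no Present call there and was not tested. The 7 were higher on each of the 3 days, as were 1015 of all probe sets tested (23%), and 982 (22.3%) were lower on each day. Over all probe sets 2343 were higher and 2070 lower, with a median log2 difference of 0.02. In 503 (11.4%) every lysolecithin array was above every saline array, and in 517 (11.7%) below. Genes named below were mostly chosen by p, size or direction on these same arrays. That choice favours groups that do not overlap, so a lack of overlap adds no support.

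Cd74, the class II invariant chain (probe set X13044_g_at), had signals of 690.1, 475 and 855.8 after lysolecithin on days 4, 10 and 37, and of 261.5, 102.5 and 293.5 after saline. The groups did not overlap, and the probe set was called Present on all 3 lysolecithin arrays and on 0 of the saline arrays. Cd74 rose at least 3.10-fold (log2 difference 1.63, SE 0.20; limma adjusted p = 0.00649; 3 of 3 days higher). A second probe set (X14254cds_g_at) also passed (limma adjusted p = 0.00649), from 54.9 to 75.6 after saline to 430.9 to 772.4 after lysolecithin, but it was called Present on none of the 9 lesion-side arrays, entered the test through 3 control arrays alone, and has no fold. The third, X13044_at, was Present on all 6 arrays at 501.6, 690.4 and 598.2 against 237.3, 268.1 and 291.9, a log2 difference of 1.11 that did not pass (limma adjusted p = 0.0762). X13044_g_at and X13044_at, the ones with Present calls on the lesion side, were higher on every day.

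RT1-Da, the alpha chain of the rat class II molecule RT1-D (M15562_g_at), stood at 1328.2, 924.8 and 1654.1 after lysolecithin, against 576.7, 531.8 and 656 after saline. Every lysolecithin array was above every saline array, and all 6 calls were Present. RT1-Da rose 2.13-fold (log2 difference 1.09, SE 0.17; limma adjusted p = 0.0358; 3 of 3 days higher). Its other probe set (M15562_at) had a limma adjusted p of 0.0478 but was Present on none of the 6 arrays, so it has no fold. Class II genes are similar in sequence, and how far 1 probe set reads a relative was not tested.

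C3 (M29866_s_at) stood at 613.3, 549.1 and 639.2 after lysolecithin, against 282.4, 318.7 and 367.6 after saline. The groups did not overlap, and the calls were Present on 3 lysolecithin and 0 saline arrays. C3 rose at least 1.83-fold (log2 difference 0.87, SE 0.14; limma adjusted p = 0.0358; 3 of 3 days higher). A dimmer C3 probe set (X52477_at) was at 506.1, 431.2 and 398.3 against 333.5, 299.9 and 258.5 and did not pass (log2 difference 0.56; limma adjusted p = 0.104).

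The probe set with the smallest p, rc_AI176456_at, is annotated to several genes and is therefore not named. It stood at 12503, 6962 and 8027.1 after lysolecithin, against 4303.2, 2902 and 3596.6 after saline, with no overlap, and rose 2.49-fold (log2 difference 1.32, SE 0.11; limma adjusted p = 0.000474; 3 of 3 days higher). The other unnamed probe set, AF028784cds#1_s_at, rose 1.65-fold (log2 difference 0.72, SE 0.11; limma adjusted p = 0.0312), from 5064.3 to 5299.2 after saline to 7263.1 to 9600.5 after lysolecithin.

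These calls depended on single arrays. Without the lysolecithin day 4 array 1 probe set passed, and the calls of Cd74 (log2 difference 1.61; adjusted p = 0.138), RT1-Da (0.98; 0.461) and C3 (0.81; 0.416) were lost. RT1-Da and C3 were also lost without the saline day 4 array (2 probe sets passed), the saline day 10 array (4), the lysolecithin day 10 array (7) or the lysolecithin day 37 array (4), and C3 without the transection day 37 array (7). Without the saline day 37 array 95 passed, 45 higher and 50 lower, and without the transection day 10 array 17, and both sets held all 7. With no day term in the model 0 passed and 682 had an unadjusted p under 0.05.

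**Figure D1:**
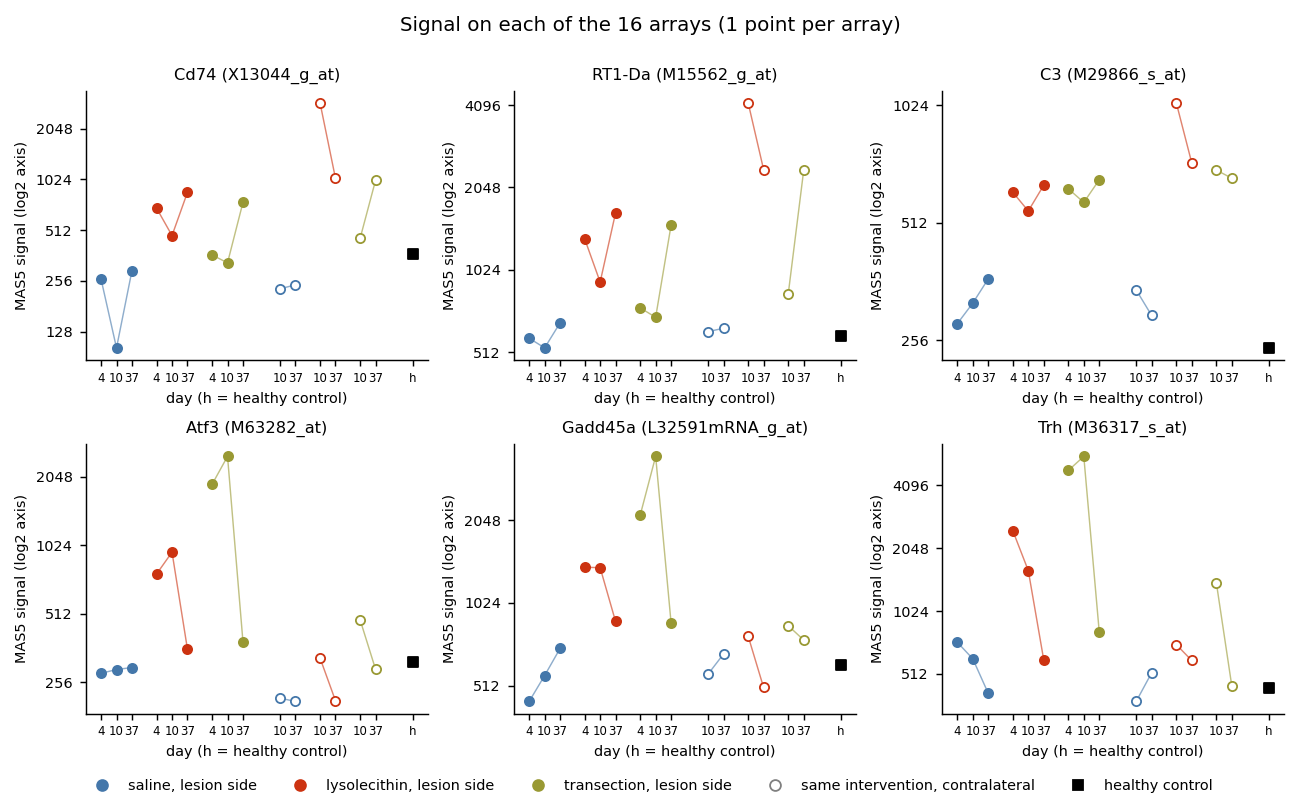
MAS5 signal (log2 axis) of 6 genes on the 16 arrays, by intervention, side and day; 1 point is 1 array and lines join the days of an intervention. Cd74, RT1-Da and C3 (top) are above the saline arrays on the lysolecithin lesion side and higher still on the contralateral lysolecithin arrays, while Atf3, Gadd45a and Trh (bottom) are highest on the lesion side on days 4 and 10.

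The stretches upstream of the class II genes are shown because 4 of the chains measured here stood higher after lysolecithin. They are the 150 bases before the RefSeq gene start (assembly GRCr8), 5′ to 3′ on the gene's strand, and capitals mark CTGATTGG, the core of the Y box known from class II promoters, searched on both strands and chosen after the sequences had been seen.
RT1-Da, chr20:4515265-4515414, plus strand: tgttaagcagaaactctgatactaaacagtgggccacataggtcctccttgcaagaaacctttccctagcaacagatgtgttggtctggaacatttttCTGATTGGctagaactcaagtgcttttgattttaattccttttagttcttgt
RT1-Db1, chr20:4560163-4560312, minus strand: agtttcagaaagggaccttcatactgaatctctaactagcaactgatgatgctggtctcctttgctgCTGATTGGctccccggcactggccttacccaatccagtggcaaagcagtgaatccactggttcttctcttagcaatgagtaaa
Cd74, chr18:56527056-56527205, plus strand: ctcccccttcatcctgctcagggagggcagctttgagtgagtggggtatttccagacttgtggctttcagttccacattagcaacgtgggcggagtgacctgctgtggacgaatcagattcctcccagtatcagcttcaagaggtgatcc
The 8 letters lie 52 to 45 bases before the start of RT1-Da and 83 to 76 bases before that of RT1-Db1, and they are also present upstream of RT1-Ba and RT1-Bb (1 match each). They do not occur in the window of Cd74. Of 33469 rat promoters of the same length 820 hold them (2.45%). The match is a description of letters and was not tied to any protein here.

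Other genes of the immune lists were also higher, without passing. Of 13 tested MHC and interferon genes 12 were higher, 8 of them on 3 of 3 days (61.5%, beside 22.1% of all 2713 genes). Their median log2 difference was 0.37, beside 0.01 over all 2713 genes, and 1 (RT1-Da) passed at its brightest probe set. RT1-Db1, the beta chain that pairs with RT1-Da, was at 313.2, 321.8 and 391 against 137, 217.1 and 228 (log2 difference 0.79, SE 0.18; limma adjusted p = 0.0868). Psme1, an activator subunit of the proteasome that helps make peptides for presentation, was at 5836, 7425 and 7373.8 against 3457.2, 3190.7 and 5764 (0.77, SE 0.20; limma adjusted p = 0.104). Neither gene overlapped between the groups. The chains of the second class II molecule, RT1-Ba and RT1-Bb, differed by 0.37 and 0.41, and B2m, the light chain of class I, by -0.02.

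Of 10 complement and acute inflammation genes 8 were higher, 7 of them on 3 of 3 days (70%, beside 22.1% of all genes). The median was 0.26, and 1 (C3) passed. Serping1, the inhibitor of the complement C1 complex, was at 449, 386.3 and 393.5 after lysolecithin, against 286, 149.3 and 248.7 after saline (log2 difference 0.85, SE 0.18; limma adjusted p = 0.0753). C1qb, a chain of the recognition protein C1q, differed by 0.42 and C1r, a protease of the complex, by 0.52. Each of these 3 was higher on 3 of 3 days.

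Of 13 microglia and macrophage genes 11 were higher, 7 of them on 3 of 3 days (53.8%, beside 22.1% of all genes). The median was 0.33, and none passed. Lgals3, galectin-3 of phagocytic microglia, was at 3190.8, 1004.6 and 913.1 after lysolecithin, against 719.9, 523.6 and 508.5 after saline. The lowest lysolecithin array was above the highest saline array, and the log2 difference of 1.29 (SE 0.26; 2.44-fold) did not pass (limma adjusted p = 0.0726). Cd53, a tetraspanin of white blood cells (0.58), Aif1, the microglial protein Iba1 (0.58), and Lyz2, a lysozyme of macrophages (0.68), were higher on 3 of 3 days. Ctss, a microglial protease among the brightest members, differed by 0.09, and P2ry12, a receptor of resting microglia, by -0.11.

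The summed signal of the 13 microglia genes was 24519 to 31044 after lysolecithin, 21429 to 25550 after saline and 16326 to 31644 on the controls, and no member was at 0, although Ptprc, the common leukocyte antigen, was at 2.8 to 75.9 on the 6 arrays. Of 37 microglia markers listed, 19 were on the array. In this bulk tissue a change in the number of cells of a type and a change in RNA per cell cannot be told apart.

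The same transcripts were then read on the contralateral arrays, which entered the comparison only through the detection filter. The class II and C3 signals below were higher on the lysolecithin arrays labelled control than on those labelled lesion, and the side labels of these arrays were not checked independently. Cd74 (X13044_g_at) stood at 2905.9 and 1038.9 on the contralateral lysolecithin arrays of days 10 and 37 and at 229.6 and 242.3 on the contralateral saline arrays. RT1-Da stood at 4170.1 and 2381.1 against 609.8 and 627.1. C3 stood at 1039.7 and 729.9 against 344.4 and 296.3. On each of these days the lysolecithin signal of all 3 genes was higher on the contralateral than on the lesion side, with lesion-minus-contralateral log2 differences of -2.57 and -0.28 for Cd74, -2.15 and -0.52 for RT1-Da and -0.90 and -0.19 for C3.

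The contralateral transection array of day 37 was high for Cd74 (1009.1) and RT1-Da (2363.9) as well, beside 457.6 and 838.1 on that of day 10. C3 stood at 666.3 on the day 37 array and at 699.1 on the day 10 array. The healthy array stood at 370.1, 585.7 and 244.7 for Cd74, RT1-Da and C3.

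The difference between sides was tested in limma as lysolecithin minus saline in lesion-minus-contralateral values on days 10 and 37 (2 residual degrees of freedom). It was -1.03 for Cd74 (SE 0.48), -1.27 for RT1-Da (SE 0.45) and -0.64 for C3 (SE 0.26), each with an adjusted p of 0.9998. 0 probe sets passed this test and 153 had an unadjusted p under 0.05. Of the 7 probe sets that rose on the lesion side, 6 turned to a negative value and AF028784cds#1_s_at kept a positive one (0.36).

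The medians of the immune lists were above 0 on the contralateral side as well. The contralateral medians on days 10 and 37 were 0.82 and 0.62 for microglia, 0.38 and 0.47 for MHC and interferon and 0.56 and 0.70 for complement genes, beside lesion-side medians of 0.35 and 0.29, 0.22 and 0.35, and 0.29 and 0.26. In 10 of 13, 10 of 13 and 8 of 10 genes the contralateral difference, averaged over the 2 days, was the larger one, which held for 49.5% of all probe sets tested. Fcgr2b, an antibody receptor of microglia, stood at 759.1 and 323.7 against 97.5 and 201.7 contralaterally and 279.8 and 165 against 126.2 and 196.4 on the lesion side.

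**Figure D2:**
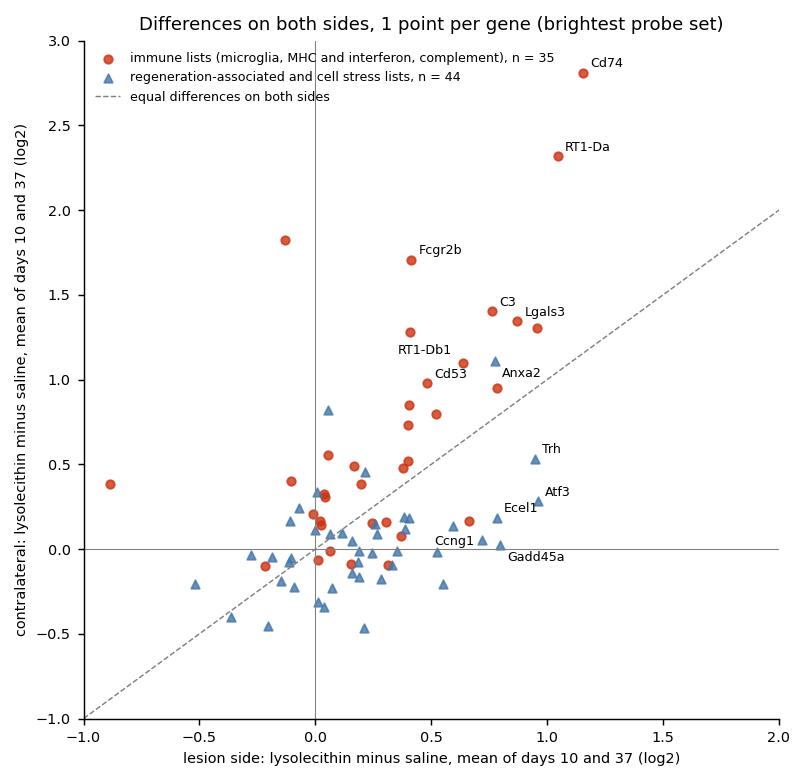
Difference between lysolecithin and saline, averaged over days 10 and 37, on the lesion side (horizontal) and on the contralateral side (vertical), in log2(signal + 16) for the brightest probe set of each gene; the dashed line marks equal differences. Cd74, RT1-Da, C3 and Fcgr2b lie above the line, and Atf3, Gadd45a, Trh and Ecel1 lie below it.

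Genes known from the response of neurons to axon injury were mostly higher on the lesion side after lysolecithin, mainly on days 4 and 10, and none passed the test. Of 32 tested regeneration-associated genes 23 were higher and 9 were lower. On 3 of 3 days 9 were higher (28.1%, beside 22.1% of all genes) and 4 lower (12.5%, beside 24.5%). Of the 32, 8 were higher and 2 lower with an unadjusted p under 0.05, beside the 10.7% and 9.93% of all probe sets. The median log2 difference was 0.23, and the medians of the single days were 0.42, 0.26 and 0.06 on days 4, 10 and 37, beside contralateral medians of 0.10 and 0.02.

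Atf3, the transcription factor of injured neurons, stood at 765.6, 955 and 357.9 after lysolecithin, against 280, 291 and 296.9 after saline. The groups did not overlap, but the day 37 array was close to the saline level, and the log2 difference of 1.11 (SE 0.37; 2.15-fold) did not pass (limma adjusted p = 0.144). On the contralateral side Atf3 was at 326.8 and 212.3 after lysolecithin, against 217.6 and 210.8 after saline. Atf3 after transection was at 1897.9, 2519.6 and 386.3, also lowest on day 37.

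Gadd45a, a growth-arrest gene induced by DNA damage and stress, was at 1380.9, 1375.6 and 877.5 against 450, 558.3 and 700.1 (log2 difference 1.06, SE 0.33; limma adjusted p = 0.120). Trh, the precursor of thyrotropin-releasing hormone, was at 2480.9, 1601.2 and 599.6 against 726, 605.5 and 414.3 (1.22, SE 0.32; limma adjusted p = 0.104). Ecel1, a peptidase of the nervous system that responds to nerve injury, was at 1340.8, 1533 and 628.1 against 494.8, 626.2 and 508.2 (0.99, SE 0.25; limma adjusted p = 0.104). In all 3 genes the day 37 lysolecithin array was the lowest of its group, and in Trh it lay below the saline day 4 and day 10 arrays. Jun, the partner of Atf3 in the injury response, was at 845.8, 829.9 and 600.9 against 494.7, 527.2 and 533.8 (0.52, SE 0.20; limma adjusted p = 0.181).

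In these injury genes the difference of side differences was positive, 0.68 for Atf3, 0.77 for Gadd45a, 0.42 for Trh, 0.60 for Ecel1 and 0.22 for Jun, and did not pass (limma adjusted p = 0.9998 for Atf3, Gadd45a and Trh). Anxa2, an annexin at the cell membrane, was higher on the lesion side (966.7, 732.5 and 617.9 against 359.8, 366.1 and 407.9; 0.98, SE 0.28) and also on the contralateral side (1136.4 and 493.9 against 332.2 and 345.8). Gap43, the growth-cone protein, differed by 0.25 (SE 0.20), with 1363.4, 1744.2 and 1332.5 against 1396.8, 1320.4 and 1026.7. Egr1, an immediate early gene that follows neuronal activity, was the member with the smallest p on the low side, at 4561.1, 3960.5 and 3389 against 5567.9, 5266.3 and 5258.9 (-0.44, SE 0.11; limma adjusted p = 0.104).

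Genes of cell stress were mostly higher, without passing. Of 13 tested apoptosis and cell stress genes 12 were higher, 6 of them on 3 of 3 days (46.2%, beside 22.1% of all genes). The median was 0.37, and none passed. Ccng1, a cyclin switched on by p53, was at 2589, 2440.7 and 2068.4 against 1051.5, 1137.5 and 1626.1 (log2 difference 0.91, SE 0.23; limma adjusted p = 0.104), with no overlap. Bcl2l1, an inhibitor of apoptosis, was at 674.5, 715.7 and 714.9 against 300.2, 490.3 and 495.7 (0.72, SE 0.16; limma adjusted p = 0.0762). Ddit3, the stress factor CHOP, was at 1247.7, 1206.2 and 518.4 against 781.7, 516.6 and 555, higher on days 4 and 10 alone (0.59, SE 0.28). On the contralateral side the list had medians of 0.31 and -0.15.

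Of 25 genes for neurotrophic factors and their receptors 21 were higher, with a median of 0.23 and medians of 0.54, 0.11 and 0.06 on days 4, 10 and 37. Fgfr1, a receptor of fibroblast growth factors, was at 3331.1, 3036 and 3660.1 against 1917.5, 2479.9 and 2742.2 (log2 difference 0.50, SE 0.13; limma adjusted p = 0.104). Unc5b, a netrin receptor, was at 1260.7, 1454 and 1605.4 against 789.4, 1179.8 and 1181.1 (0.47, SE 0.13). Both were higher on 3 of 3 days and neither passed.

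Among the lesion-side lysolecithin arrays, Vim and Col1a1 had their highest signals on day 4. Vim, the intermediate filament vimentin of reactive glia and vessels, stood at 8740.5, 2048.3 and 1711.5 after lysolecithin, against 2594.6, 1364.8 and 1083.7 after saline (log2 difference 0.99, SE 0.20; limma adjusted p = 0.0726). Col1a1, a chain of type I collagen, stood at 813.4, 554.1 and 408.1 against 187.9, 284.5 and 328.5 in the probe set of smallest p (1.08, SE 0.26; limma adjusted p = 0.0963). Both were furthest above saline on day 4. The brightest Col1a1 probe set was at 3211.6, 1398.6 and 679.1 against 728.2, 1067.2 and 719.3, so that it was below saline on day 37. S100a4, a calcium-binding protein, was at 1281.3, 375.8 and 645.6 against 425.8, 285.2 and 302.1 (limma adjusted p = 0.0963; not passed). On the contralateral arrays of days 10 and 37 Vim stood at 3062.7 and 3161.1 after lysolecithin, against 1393.4 and 987.9 after saline. In the same order S100a4 was at 749.9 and 705.6 against 290 and 256. Col1a1, in its probe set of smallest p, was at 1233.8 and 323.2 against 404.1 and 316.8. Vim and S100a4 were above their lesion-side lysolecithin signals on both days, and Col1a1 on day 10.

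Of 21 meninges and extracellular matrix genes 18 were higher, with medians of 0.78, 0.26 and 0.17 on the 3 days and contralateral medians of 0.32 and 0.24. Their summed signal was 30398 to 35328 after lysolecithin, 27718 to 28465 after saline and 25144 to 33758 on the controls. The 5 tested blood cell genes had medians of 0.58, 0.45 and -0.05 on the 3 days, with the haemoglobin gene Hbb at 11678.4, 8866.7 and 4565 against 7367.4, 7160 and 5530.2. What these markers of membranes and blood contribute to the differences above was not tested.

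Of 26 astrocyte genes 16 were higher and 10 lower, with a median of 0.07. Slc1a2, the main glutamate transporter of astrocytes, was at 429, 693.1 and 619.1 against 267.1, 273.1 and 322.9 (log2 difference 0.95, SE 0.17; limma adjusted p = 0.0525), beside 478.8 and 483.9 on the contralateral saline arrays and 732.2 on the healthy one. Atp1b2, a subunit of the sodium pump in glia, was at 1133.3, 884.3 and 1535.7 against 380.7, 708.7 and 487.4 (1.16, SE 0.22; limma adjusted p = 0.0630), while its brighter probe set was lower on day 10. Timp1, an inhibitor of metalloproteinases, was higher on 3 of 3 days but called Present on 1 lysolecithin and 0 saline arrays. Ptprs, a receptor phosphatase, was at 83.5, 60.5 and 53.1 against 33.5, 9.2 and 24.8 in a probe set near background (at least 1.82-fold; limma adjusted p = 0.163), and its 2 brighter probe sets differed by 0.23 and 0.20.

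**Figure D3:**
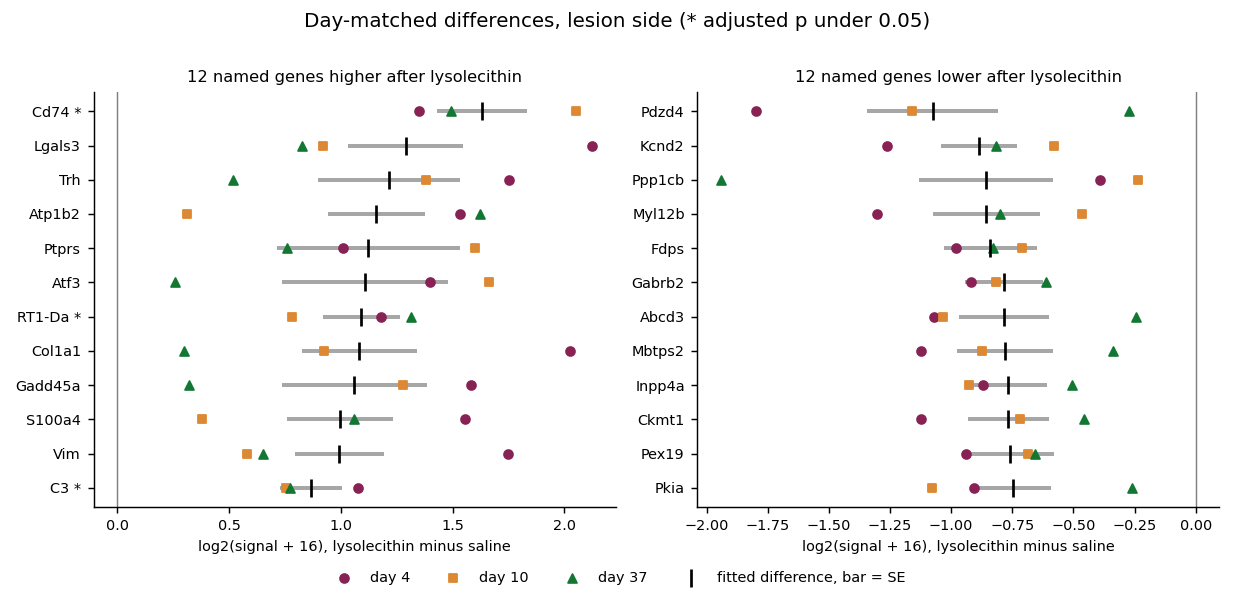
Day-matched differences between lysolecithin and saline on the lesion side (log2(signal + 16)) for the 12 named genes that were higher and the 12 that were lower; symbols are single days, the black tick is the fitted difference and the grey bar its SE. Cd74, RT1-Da and C3 (asterisks) passed, while Atf3, Gadd45a, Trh, Col1a1 and Vim are furthest from 0 on days 4 or 10.

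Transcripts of the myelin-forming cells near the cell bodies differed little between the groups. Of 16 tested oligodendrocyte and myelin genes 7 were higher and 9 lower, with a median of -0.04 (0.06 when the probe sets of a gene were averaged) and medians of -0.04, -0.02 and 0.02 on days 4, 10 and 37. Mbp, myelin basic protein, was at 22580.1, 26131 and 24683.8 after lysolecithin, against 23347.6, 25132.6 and 24238 after saline (log2 difference 0.01, SE 0.08). Cnp, an enzyme of the myelin sheath (-0.05, SE 0.11), Mog, a glycoprotein of its outer surface (-0.16, SE 0.11), and Mobp, another myelin protein (-0.10, SE 0.10), were within 2 SE of 0.

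Mag, an adhesion molecule between myelin and axon, was at 4463.5, 4840.4 and 5540.3 against 3052.2, 3854.2 and 4389.7 (log2 difference 0.40, SE 0.11; limma adjusted p = 0.112), and Cd9, a tetraspanin that microglia express as well, at 4817.5, 3515.9 and 4125.5 against 2564.5, 2801.9 and 3386.4 (0.50, SE 0.14; limma adjusted p = 0.112). These 2 were higher on 3 of 3 days and did not overlap, and neither passed. In the other direction Mog and Ugt8, another gene of the list (-0.19, SE 0.10), were lower on 3 of 3 days without overlap. Neither of them passed (limma adjusted p = 0.430 and 0.328). Of all probe sets tested, 11.4% were wholly above saline and 11.7% wholly below. Mal, a myelin proteolipid, was at 3248.9, 3719.6 and 3991.4 against 3891.2, 3833.5 and 1463.7, so that its difference came from 1 low saline array. Sox10, a transcription factor of the lineage, and Pdgfra, a receptor of its precursors, differed by 0.07 (SE 0.13) and -0.16 (SE 0.15). The arrays measured the pontine nuclei and not the site where lysolecithin had been applied.

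**Figure D4:**
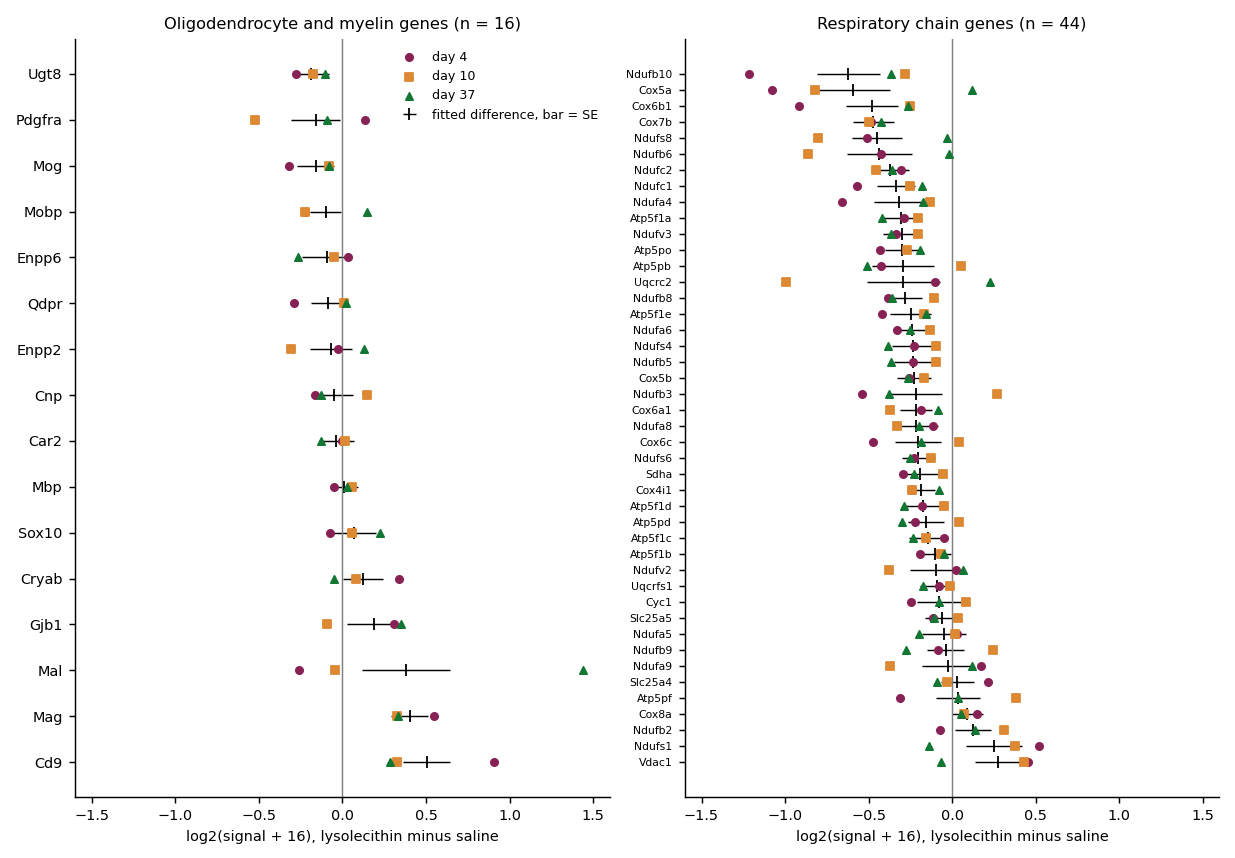
Differences between lysolecithin and saline on the lesion side (log2(signal + 16)) for 16 oligodendrocyte and myelin genes (left) and 44 respiratory chain genes (right); symbols are single days, and the black tick with its bar is the fitted difference and SE. Among the myelin genes Mag, Cd9 and Mal are the furthest above 0, Mal through day 37, and 38 of the 44 respiratory chain genes lie below 0.

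No probe set fell, and the named genes on the low side are values that did not pass. Kcnd2, the potassium channel Kv4.2 of dendrites, came nearest, at 829.8, 1017.9 and 611.1 after lysolecithin, against 2012.4, 1530 and 1087.3 after saline (log2 difference -0.89, SE 0.16; limma adjusted p = 0.0525). The groups did not overlap in this probe set, while a second one of the gene differed by -0.14. Gabrb2, a subunit of the GABA-A receptor, was at 1759.2, 1815.5 and 1514.5 against 3343.9, 3209.7 and 2325.9 (-0.78, SE 0.16; limma adjusted p = 0.0739). Pdzd4, a protein with a PDZ domain, was at 396.4, 403.8 and 370.7 against 1416.5, 921.5 and 451.2 (-1.08, SE 0.27; limma adjusted p = 0.104).

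Genes of mitochondria, peroxisomes and lipid synthesis were also among the 12. Ckmt1, the mitochondrial creatine kinase, was at 5714.7, 5684.7 and 5533.9 against 12469.2, 9369.2 and 7599.8 (log2 difference -0.77, SE 0.17; limma adjusted p = 0.0762). Abcd3, a transporter of the peroxisomal membrane, was at 2491.8, 2725.8 and 2801.2 against 5251, 5597.1 and 3321.4 (-0.78, SE 0.18; limma adjusted p = 0.0963). In both genes the lysolecithin arrays were alike and the saline arrays were highest on the early days.

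Pex19, a peroxisome assembly factor (-0.76), Mbtps2, the protease that releases sterol regulatory factors (-0.78), and Pkia, an inhibitor of protein kinase A (-0.75), were lower on 3 of 3 days, as was Inpp4a, a phosphoinositide phosphatase (-0.77). Fdps, an enzyme of cholesterol synthesis, differed by -0.84 in the named probe set and by -0.17 and -0.29 in the others. Myl12b, a myosin light chain, differed by -0.86 in a dim probe set and by 0.14 in a brighter one. Ppp1cb, a catalytic subunit of protein phosphatase 1, was at 1410.9, 1399.8 and 356.3 against 1854.3, 1651.8 and 1413.4, with most of its difference on day 37. In each of the 12 the highest lysolecithin array was below the lowest saline array, as in 11.7% of all probe sets tested (11.4% were wholly above). The 12 were chosen by size, p and direction on these same arrays, which favours such a separation, so it adds no support. Of the 12, 9 were furthest from saline on day 4. All 12 were also lower after transection than after saline, and the 12 higher named genes were all higher. Both comparisons share the saline arrays, and 3189 of the 4413 probe sets tested had the same sign in both.

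The 12 lower genes were also read on the control arrays, which had entered their choice only through the detection filter. Their mean log2 signal was 11, 10.8 and 10.3 on the saline lesion-side arrays of days 4, 10 and 37 and 9.98, 10.0 and 9.65 after lysolecithin. On the contralateral side it was 10.6 and 10.0 after saline and 9.86 and 10.6 after lysolecithin on days 10 and 37, so that all 12 were lower than contralateral saline on day 10 and higher on day 37. The healthy array stood lowest, at 9.58, and had the lowest beta-actin 3′/5′ ratio (1.04). The saline day 4 array stood highest and had the highest ratio (1.68), while the contralateral lysolecithin day 37 array combined 10.6 with a ratio of 1.16. The part of RNA quality in these differences was not tested.

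Genes of the mitochondrial respiratory chain were lower after lysolecithin in small steps. Of 44 tested genes 38 were lower, 26 of them on 3 of 3 days (59.1%, beside 24.5% of all genes), and 6 were higher. None passed, and 17 were lower with an unadjusted p under 0.05, beside 294 of all 2713 genes. The median log2 difference was -0.21, with -0.24, -0.13 and -0.19 on the 3 days, -0.08 and -0.13 on the contralateral side and -0.22 for transection minus saline, which shares the saline arrays. Subunits of NADH dehydrogenase were lower in 18 of 20 cases, those of cytochrome c oxidase in 7 of 8 and those of ATP synthase in 8 of 9.

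Cox7b, a small subunit of cytochrome c oxidase, was at 5631.7, 5030.2 and 4759.5 against 7901.7, 7106.5 and 6406.1 (log2 difference -0.47, SE 0.12; limma adjusted p = 0.104). Ndufb10, an accessory subunit of NADH dehydrogenase, was at 1758.2, 2303.3 and 2452.8 against 4112.9, 2798.7 and 3167.7 (-0.62, SE 0.19; limma adjusted p = 0.119). Neither overlapped between the groups. Vdac1, the channel of the outer mitochondrial membrane, was the member furthest in the other direction, at 3120.1, 2312 and 2244 against 2276.1, 1711.4 and 2351.7 (0.27). The summed signal of the 44 genes was 252536 to 272468 after lysolecithin, 276784 to 314559 after saline and 231721 to 306721 on the controls.

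Neuronal lists were split between higher and lower genes. Of 33 genes of synaptic vesicles and release 17 were higher and 16 lower. Syt11, a synaptotagmin, was at 847.5, 969.1 and 1096.9 against 348.1, 493.1 and 703.6 (log2 difference 0.94, SE 0.18; limma adjusted p = 0.0630), and Rab5a, a GTPase of early endosomes, at 575.9, 842.2 and 620.4 against 1437.3, 1113.5 and 797.2 (-0.68, SE 0.19; limma adjusted p = 0.112). Of 33 genes for glutamate, GABA and glycine receptors 16 were higher and 17 lower. Glra2, a glycine receptor subunit (-0.69), Grik1, a kainate receptor subunit (-0.59), and Gria2, an AMPA receptor subunit (-0.54), were lower on 3 of 3 days, and Grin1, the obligatory NMDA receptor subunit (0.43), was higher.

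Of 27 sodium, potassium and calcium channel genes 14 were higher and 13 lower. The potassium channel genes Kcnc1 (log2 difference -0.61) and Kcnc2 (-0.53), which serve fast firing, were lower on 3 of 3 days, and Kcna1, a channel of the axon beside the node (0.48), was higher. Of 14 pan-neuronal genes 9 were lower, with a median of -0.12, which was 0.01 when the probe sets of a gene were averaged. Thy1, a surface glycoprotein of neurons, was at 15738.4, 16008.1 and 15683.4 against 25366, 22142.8 and 17172.3 (-0.43, SE 0.11; limma adjusted p = 0.104), and the neurofilament genes Nefm and Nefl differed by -0.27 and -0.18. Of 25 genes of the cytoskeleton and axonal transport 17 were lower, with a median of -0.12. None of these genes passed.

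Most of the remaining lists had medians near the 0.01 of all genes. They were -0.07 for cholesterol and fatty acid synthesis (16 of 24 lower), -0.06 for chaperones (17 of 28 lower), -0.04 for glycolysis, -0.01 for glutathione and antioxidant genes, -0.01 for neuropeptides, 0.04 for ribosomal proteins and 0.09 for immediate early genes, the last with 0.39 on day 4 and -0.19 on day 37. Vascular genes had 0.20 with 6 of 10 higher. The short lists of other cells held 3 choroid plexus, 4 Schwann cell, 5 cerebellar and forebrain and 4 monoaminergic and cholinergic genes tested, with medians of 0.18, 0.26, 0.25 and 0.03, and none of these genes passed. The lists are set side by side in the plot of gene list medians.

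**Figure D5:**
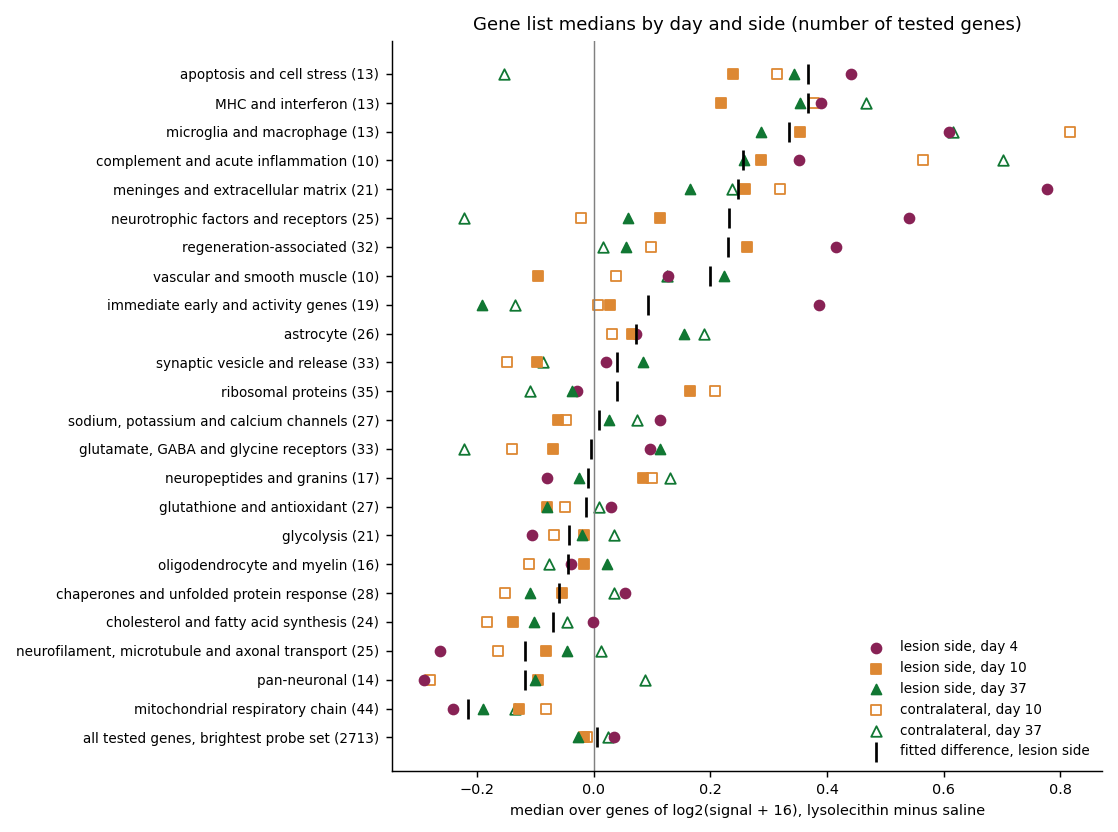
Median difference between lysolecithin and saline over the tested genes of each list with at least 10 of them (log2(signal + 16)); filled symbols are the lesion side by day, open symbols the contralateral side, and the black tick the median fitted difference. The microglia, complement and MHC medians are above 0 on both sides, whereas those of cell stress and neurotrophic genes are below 0 contralaterally on day 37.

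The distance between the groups was widest on day 4. A signal at least 2-fold higher after lysolecithin was found for 129 probe sets on day 4, 46 on day 10 and 29 on day 37, and at least 2-fold lower for 57, 15 and 28. The paired arrays correlated at r = 0.965, 0.981 and 0.981 across probe sets on the 3 days. With 1 array a side and day, no test of the days against each other could be made. The saline day 4 array had the highest beta-actin ratio of all arrays (1.68). Its median signal was also the lowest, at 217.1 beside 264.2 on the lysolecithin day 4 array. The median log2 difference was 0.07 on day 4, -0.01 on day 10 and -0.02 on day 37. How far the day 4 counts rest on this saline array was not tested. On day 4 Lgals3 was 4.36-fold and Col1a1 4.34-fold higher, and on day 10 Gadd45a was 4.22-fold (L32591mRNA_at) and Atf3 3.16-fold higher.

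On day 37 the high end held the glial genes Atp1b2, Aqp4 and Mal. Atp1b2 stood highest, at 1535.7 against 487.4, beside 654.7 to 1337.3 on the controls. Its brighter probe set was at 3990.5 against 1430.9, beside 1398.4 to 3785.6. The lysolecithin value of Atp1b2 was above the control range in each probe set, and the saline value was below it in the first alone. Aqp4, the water channel of astrocytes, was at 1671.2 against 602.8, beside 1102.9 to 2341.4 on the controls, and Mal at 3991.4 against 1463.7, beside 2622.5 to 4031.9. In Aqp4 and Mal the lysolecithin value lay within the range of the controls and the saline value below it. RT1-Da was 2.49-fold higher on this day. At the low end of day 37 stood Ppp1cb and Slc24a2, an exchanger of sodium, calcium and potassium, at 832 against 2398.1, which had been above saline on days 4 and 10.

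Whether demyelination differed from transection was tested in the same model. 17 probe sets were higher after lysolecithin than after transection (0.385%) and 4 lower (0.0906%), with 598 at an unadjusted p under 0.05. Of the 7 probe sets that rose against saline, 1 also passed here, the unnamed rc_AI176456_at (log2 difference 0.68, SE 0.11; limma adjusted p = 0.0476). Cd74 (0.53, SE 0.20), RT1-Da (0.46, SE 0.17) and C3 (-0.05, SE 0.14) did not pass, with adjusted p of 0.282, 0.276 and 0.916. Atf3 differed from transection by -0.93 (SE 0.37; limma adjusted p = 0.313) and Trh by -1.07 (SE 0.32; limma adjusted p = 0.199), and neither passed.

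Among the genes higher after lysolecithin than after transection were parts of the release machinery and of the axon. Rab3a, a GTPase of synaptic vesicles, was at 4401.9, 3617 and 4693.6 after lysolecithin, 1908.1, 1680.2 and 2340.4 after transection and 2003.9, 3550.7 and 3435 after saline (lysolecithin minus transection 1.10, SE 0.18; limma adjusted p = 0.0476). Ina, the neurofilament protein internexin, was at 6833.4, 7179 and 8065.8, 3855.9, 4147.3 and 5949.3, and 8406.5, 7115.5 and 7919.1 in the same order (0.68, SE 0.13; limma adjusted p = 0.0483). Bcl2l1 passed in its probe set U72350_at (0.96, SE 0.15; limma adjusted p = 0.0416), with 629.7, 624.6 and 693.8 against 304.8, 336.8 and 339.9. This probe set was called Present on 1 transection array. The brighter Bcl2l1 probe set, S78284_s_at, did not pass against transection (0.57, SE 0.16; limma adjusted p = 0.185). Ina after lysolecithin was at the saline level, and Bcl2l1 and Rab3a were above it without passing.

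The count of 21 depended on single arrays and settings too. It was 0 without the lysolecithin day 4 array or the transection day 10 array (330 and 508 at an unadjusted p under 0.05), 1 without the lysolecithin day 10 or transection day 4 array, 2 without the lysolecithin day 37 array, 4 without the saline day 10 array and 11 without the transection day 37 array.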

How the data were processed

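RNA of rat pontine nuclei was hybridised to 16 Affymetrix arrays with 8799 probe sets, 1 array a condition. The deposited per-array files hold a linear signal intensity for each probe set, made by the authors with MAS5 per the submitters' processing notes, together with a Present, Marginal or Absent call and its detection p-value per the file headers. Background correction, scaling target and software version are not given in the sources used here. A deposited series value table with 7773 probe sets, made in a way the labels do not state, is on a log2 scale from its values (column medians 8.36 to 8.40; r = 0.982 to 0.988 with the log2 signal of the same array), and its centring is unknown.

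Signals were taken as log2(signal + 16). Probe sets with a Present call on 3 or more of the 16 arrays entered the fit, 4413 in all, and the 59 control probe sets did not. Intervention and day were terms in limma 3.58.1 (R 4.3.3; lmFit, eBayes with an intensity trend) over the 9 lesion-side arrays, with 4 residual degrees of freedom, and p-values were adjusted by Benjamini-Hochberg over all probe sets tested. The fit was tested on simulated data. A fold written as at least is a lower bound for a probe set not Present on any array of its dim group: the mean log2 signal of the bright group against, per array, the higher of the dim signal and the lowest signal called Present. Other folds are on the log2(signal + 16) scale and understate changes of dim probe sets.

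Gene names came from the platform annotation, updated by gene ID to RefSeq symbols (1 symbol for 6283 probe sets, several for 280, none for 2236). The named genes are the 12 highest and 12 lowest by log2 difference that passed and moved the same way on 3 of 3 days, filled up with probe sets of unadjusted p under 0.05, the same direction each day and Present calls on all 3 arrays of the higher side. From each of 28 gene lists, read at the brightest probe set of a gene, up to 6 members of smallest p could be named, any member in the myelin, regeneration and astrocyte lists, and from single days the 5 highest and 5 lowest of signal over 200. B2m, Ctss, Ddit3, Fcgr2b, Ina, P2ry12, Ptprc and Vdac1 were named outside these rules after their values were seen. The comparison and the lists were chosen with earlier results of these data known.

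Alternatives were other offsets and detection filters, quantile normalization, no intensity trend, no day term, 6 arrays in place of 9, array weights, the series value table, lesion minus contralateral values and each array left out. Tables and plots used Python 3.11.15, pandas 2.3.3 and matplotlib 3.10.9.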

Additional observations from a re-analysis of the deposited data

Results flagged for a closer look

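The genes for neurotrophic factors and their receptors stood higher after lysolecithin than after saline on the lesion side (median log2 difference 0.23 over 25 genes, above 0 on each of the 3 days) and lower on the contralateral side, with medians of -0.02 on day 10 and -0.22 on day 37. On the contralateral side 1 of the 25 genes was higher on both days, beside 20.2% of all probe sets tested, and 6 were lower (24%), beside 21.8%, and the day 10 median is close to the -0.01 of all genes. The difference between the sides was not tested for the list, and each contralateral value rests on 1 array an intervention.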

How the results depend on the processing

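The 7 probe sets that passed for lysolecithin against saline became 1 with no detection filter (1301 of 8740 at an unadjusted p under 0.05), 1 without the intensity trend (867), 4 after quantile normalization, 22 with the 6 arrays alone, 29 with array weights, 0 without the day term and 0 in lesion-minus-contralateral values. Leaving out single arrays gave 1 to 95. With offsets of 1 and 64, a detection filter on the 6 arrays and the series value table it was 7, 6, 5 and 6. The 21 for lysolecithin against transection became 9 with an offset of 1, 6 in the series value table, and 0 with no detection filter, without the intensity trend, without the day term and in lesion-minus-contralateral values (926, 571, 414 and 270 at an unadjusted p under 0.05), and 0 to 31 without single arrays. Cd74 passed under 15 of 20 alternatives, RT1-Da under 9 and C3 under 8. The lesion-minus-contralateral values, each with an adjusted p of 0.9998, turned the sign of Cd74 (-1.03 and -0.92 in its probe sets), RT1-Da (-1.27 and -0.74), C3 (-0.64), Lgals3 (-0.47), Col1a1 (-0.19), S100a4 (-0.65), Vim (-0.78) and the unnamed rc_AI176456_at (-0.79), and no other alternative turned a named gene. The complement and microglia medians were 0.15 and 0.22 after quantile normalization. The causes were not tested. Pairing was by day, as a term of the model, and by side, in the lesion-minus-contralateral values, and a block on replicate number was not fitted because these numbers only name arrays in order. With 1 array a condition, array, animal and day cannot be told apart, and dim probe sets have only bounds.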
